A study of Mus musculus with 19 samples.

Results

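Tcf7, Lef1, Bcl11b, Satb1 and Myb encode transcription factors that are used as markers of T lineage identity, and they are 5 of the 28692 gene rows in the series and were taken by name. They were followed in thymocytes of 17 mice, female and 4 to 8 weeks old, by CITE-seq, which counts RNA and antibody tags on surface proteins in the same cell as unique molecular identifiers (UMIs). The 5 wild-type (WT) mice were B6. The CD4-fated mice were AND and OT-II, which carry transgenic T cell receptors (TCRs) that see MHC class II, and MHCI-/-, which lack B2m. The CD8-fated mice were F5 and OT-I, with transgenic TCRs that see MHC class I, and MHCII-/-, which lack H2-Ab1. There were 2 mice of each of these 6 genotypes. AND and F5 mice also lacked Rag1 and so had only the transgenic receptor, whereas OT-I and OT-II mice can rearrange receptors of their own. WT 1 to 3 and all mice lacking MHC molecules were sorted for CD5+TCRB+ cells and the others were not. By the study's own sample information, all OT-I and OT-II mice and WT 4 and 5 were processed at a second site, where WT 4 and 5 were the only mice without an OT receptor. These mice were 1 of 3 experiments. WT 1, AND 1 and F5 1 formed another, and the remaining mice formed the last.

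TCF-1, the product of Tcf7, and LEF1 are HMG-box factors of the Wnt pathway that bind the same core DNA motif and act with beta-catenin or with Groucho/TLE corepressors. TCF-1 starts the T cell programme downstream of Notch, and BCL11B, a zinc-finger factor, closes commitment by shutting off progenitor and innate genes. SATB1 organises chromatin at T cell loci and is needed in the steps around positive selection. MYB sustains thymocytes from the double-negative stage through the double-positive (DP) stage, where TCR alpha rearrangement takes place. Positive selection then carries a DP cell through a CD4+CD8lo stage to a CD4 or a CD8 single-positive (SP) cell.

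On the GRCm38 build, Tcf7 (ENSMUSG00000000782) lies at chr11:52246527-52283383 on the minus strand and Lef1 (ENSMUSG00000027985) at chr3:131110297-131224357 on the plus strand. Bcl11b (ENSMUSG00000048251) lies at chr12:107910403-108004145, Satb1 (ENSMUSG00000023927) at chr17:51736187-51833290 and Myb (ENSMUSG00000019982) at chr10:21124930-21160984, each on the minus strand. The 250 bases before the annotated start of Lef1, the gene that rose first, and of Satb1, the gene that fell late, are shown 5′ to 3′ in the direction of transcription, from the RefSeq starts on GRCm38.p6. The Lef1 window is chr3:131110047-131110296 on the plus strand and the Satb1 window is chr17:51833291-51833540 on the minus strand.
Lef1: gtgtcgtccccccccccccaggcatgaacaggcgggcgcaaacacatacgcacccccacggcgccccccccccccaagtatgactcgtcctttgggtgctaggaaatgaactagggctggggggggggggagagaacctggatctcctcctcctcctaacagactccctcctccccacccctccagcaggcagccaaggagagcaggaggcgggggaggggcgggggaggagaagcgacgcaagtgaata
Satb1: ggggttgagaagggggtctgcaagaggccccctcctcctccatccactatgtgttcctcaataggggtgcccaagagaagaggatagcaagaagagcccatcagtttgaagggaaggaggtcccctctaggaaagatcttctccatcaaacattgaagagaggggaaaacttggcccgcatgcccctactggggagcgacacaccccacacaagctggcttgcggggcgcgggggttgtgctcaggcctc
No base is in capitals because neither window held a searched motif on either strand. The TCF/LEF cores CTTTGA and CTTTGT were present in 14.1% and 16.5% of 27025 such windows and the RUNX core TGTGGT in 14.2%. Among the 5 genes, only the Bcl11b window held one, a single CTTTGA, and that window and the one of Tcf7 lie inside the annotated span of their gene.

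The 19 lanes held 85389 barcodes and between 9893333 and 43303999 RNA UMIs each, and 72054 cells passed the quality filters with a median of 1519 to 7259 UMIs per cell and lane. Of these, 2906 were called doublets and entered no gate. Pairs of lanes shared at most 15 barcodes. AND 2 stood apart, because only 42.1% of its barcodes had enough antibody UMIs and other qualities to be kept, and its 17 DP2 cells were too few to be used. B2m in the DP1 gate was 14.4 to 20.8 CPM (counts per 1e6 RNA UMIs) in MHCI-/- mice and at least 181 in all others, and Rag1 was 8.05 to 53.3 CPM in AND and F5 mice and at least 361 in the others. Stages were gates on surface protein, so that no RNA of the 5 genes was used. DP1 was CD4+CD8a+CD69loCD127lo, DP2 was CD69+CD127lo, and DP3 was CD69+CD127+ with high TCRb. Semimature (SM) SP cells were CD69+ and mature (Mat) SP cells were CD69-. The CD8 SP gates also required TCRb, whereas the CD4 SP gates did not. CD4+CD8lo was set on CD4 and CD8a alone. The part of these unlike rules in the comparisons of CD4 and CD8 cells was not tested. At the median over WT mice the gates followed their known genes. Rag1 had a median of 818 CPM in DP1 and 3.38 in CD4 SM, Zbtb7b, the factor of the CD4 lineage, was highest at the median in CD4 SM, at 67.6 to 109 CPM, Runx3, the factor of the CD8 lineage, was 230 to 461 CPM in CD8 SM, and S1pr1, the receptor that lets cells leave the thymus, was highest at the median in CD4 Mat, at 303 to 704 CPM. The unsorted WT 4 and 5 departed from this, with Rag1 at 753 to 1490 CPM in DP3, above their 175 to 463 CPM in CD4+CD8lo. The CD127 threshold was 1.55 per 10000 antibody UMIs in the experiment of WT 4, WT 5 and the OT-I and OT-II mice. It was 3.76 and 6.21 in the other experiments. The part of this threshold in DP3 was not tested. A mouse entered a gate with at least 20 cells. All values below are CPM of the summed cells of a mouse and gate, which do not allow a comparison of levels between genes because only the 3′ end of a transcript is counted. A fall in CPM means a smaller share of the RNA. In these sums a smaller number of cells with a transcript cannot be told apart from less of it per cell. RNA UMIs per cell also differed between gates, with 947903 UMIs from 283 DP1 cells and 4584632 from 745 CD4 SM cells in WT 1. CPM can therefore fall without fewer UMIs of a gene per cell. Fitted changes were scaled to the bulk of genes by TMM and are smaller than the ratios of CPM at the late steps, because scaling by library size alone put the median gene at -0.195 from CD4+CD8lo to CD4 SM, -0.149 from CD4 SM to CD4 Mat and -0.234 from DP3 to CD8 SM on the log2 scale.

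**Figure D1:**
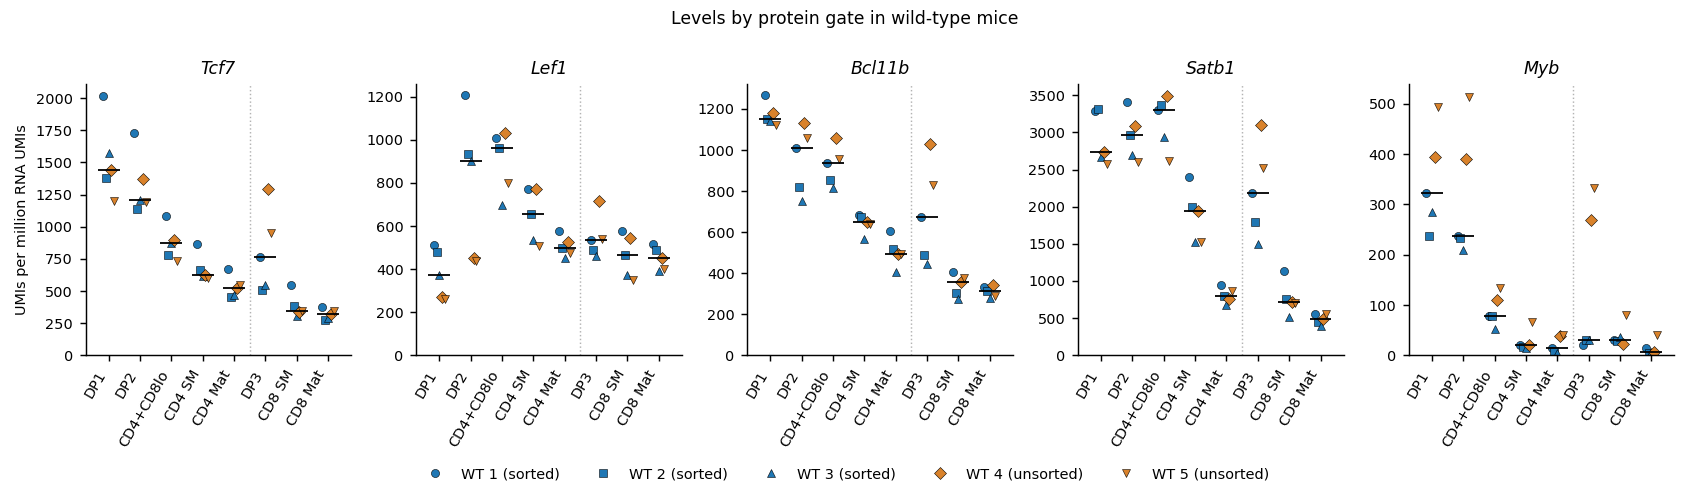
Level of each of the 5 genes (CPM, linear vertical axes from 0) in the 8 gates in WT mice, with 1 point per mouse (blue sorted, orange unsorted) and a bar at the median; a dotted line parts the gates of the CD8 branch. Tcf7, Bcl11b, Satb1 and Myb have their lowest median in CD8 Mat, whereas Lef1 has its lowest in DP1 and its highest in CD4+CD8lo.

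Across the WT gates, 4 of the 5 genes went down from DP cells to mature SP cells, and Lef1 went up first. Changes between neighbouring gates were tested in all genes with edgeR on the summed counts of each mouse, with the mouse as a block, and a gene was called at an adjusted p below 0.05. All 5 genes passed the filter on low counts in each comparison. From DP1 to DP2, 1 of the 5 was called, Lef1, which was higher, where 3.89% of all genes tested were called. From DP2 to CD4+CD8lo, 2 were called, both lower, against 20.7% of all genes. From CD4+CD8lo to CD4 SM, 3 were called, all lower, against 19.8%, and from CD4 SM to CD4 Mat 1 was called, lower, against 13.6%. On the way to CD8, 3 were called from CD4+CD8lo to DP3, all lower, against 3.79%, and 4 from DP3 to CD8 SM, all lower, against 19.5%. Only Satb1 was called from CD8 SM to CD8 Mat, where it was lower and 1.02% of all genes were called. Over all 5 mice the median change of the 5 genes was lowest from DP3 to CD8 SM, at -0.92 on the log2 scale, against -0.03 over all genes. That ranking does not hold in sorted mice alone. Their changes at this step were -0.43 for Tcf7, -0.61 for Bcl11b, -1.10 for Satb1 and 0.33 for Myb. From CD4+CD8lo to DP3 they were -0.45, -0.56, -0.68 and -1.29. The summed level of 5 NKT markers rose from 10.8 to 48.1 CPM in DP3 to 69.3 to 105 CPM in CD8 SM. Its part in the changes was not tested.

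Tcf7 was highest in DP cells and was called lower at 2 of these 7 steps. In WT 1 to WT 5, its level was 2020, 1380, 1570, 1440 and 1200 CPM in DP1 and 1730, 1140, 1210, 1370 and 1190 CPM in DP2. In CD4+CD8lo cells it was 1080, 784, 874, 896 and 732 CPM. The DP2 and CD4+CD8lo ranges did not overlap. Between those gates Tcf7 fell by 0.54 ± 0.11 (SE) on the log2 scale (adjusted p = 0.000553) and was lower in 5 of 5 mice. In CD4 SM it was 866, 667, 617, 623 and 605 CPM and in CD4 Mat 672, 455, 466, 525 and 548 CPM. It was lower in each mouse at both of these steps, but neither passed the test (adjusted p = 0.281 and 0.268). Both passed in sorted mice alone (adjusted p = 0.0396 and 0.0013) and scaled by library size (adjusted p = 0.0239 and 0.0483). From DP1 to DP2 Tcf7 was also lower in 5 of 5 mice, and was called in sorted mice alone (-0.26, adjusted p = 0.00443). On the CD8 side, Tcf7 was 766, 510, 545, 1290 and 953 CPM in DP3 and 548, 387, 307, 334 and 348 CPM in CD8 SM. The fall between these gates was 0.92 ± 0.12 (adjusted p = 7.99e-07), again in 5 of 5 mice. In CD8 Mat it was 372, 277, 290, 318 and 341 CPM, the lowest range of the 8 gates.

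Lef1 followed another course. Its level in WT 1 to WT 5 was 513, 478, 372, 270 and 262 CPM in DP1 and 1210, 935, 904, 453 and 437 CPM in DP2. It was higher in DP2 in 5 of 5 mice, by 0.74 to 1.28 on the log2 scale, and the unsorted WT 4 and WT 5 were the lowest mice in both gates. The fitted rise was 1.025 ± 0.15 (adjusted p = 5.55e-05). In CD4+CD8lo cells Lef1 was 1010, 960, 697, 1030 and 801 CPM. Relative to DP2 it was higher in 3 mice and lower in 2, and the change did not pass the test (0.33, adjusted p = 0.101). It passed without WT 3 (0.50, adjusted p = 0.028), with no filter on low counts (0.35, adjusted p = 0.00339) and with lower antibody thresholds (0.43, adjusted p = 0.0219). In WT 4 and WT 5 alone, where Lef1 had risen to a lower level by DP2, the rise into CD4+CD8lo was 1.12 (adjusted p = 1.95e-07), against an uncalled -0.09 in the sorted mice alone. These 2 mice also had more Rag1 in DP2, 1680 to 2750 CPM against 47.6 to 68.4 CPM in the sorted mice, and a higher sum of 6 quiescent DP markers, 5810 to 7400 against 1710 to 1920 CPM. The part of either in the Lef1 levels was not tested. Lef1 then stayed at 772, 656, 537, 772 and 506 CPM in CD4 SM and 579, 497, 454, 527 and 476 CPM in CD4 Mat, lower in each mouse at each step without passing the test, although the first of these steps did without WT 4 (-0.34, adjusted p = 0.024). In DP3 it was 534, 491, 460, 714 and 539 CPM, which was 0.62 ± 0.15 below CD4+CD8lo (adjusted p = 0.00849, lower in 5 of 5 mice). That call was lost without WT 1 (adjusted p = 0.0628) or WT 2 (adjusted p = 0.0552) and with other cell clusters kept in the gates (-0.40, adjusted p = 0.134). Values in CD8 SM, 348 to 576 CPM, and CD8 Mat, 391 to 517 CPM, overlapped.

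Bcl11b was lower in CD8 SM than in DP1 by a factor of about 3 at the median, 357 against 1150 CPM. In WT 1 to WT 5 it was 1270, 1150, 1140, 1180 and 1120 CPM in DP1, the narrowest spread of any of the 5 genes in that gate. In DP2 it was 1010, 820, 752, 1130 and 1060 CPM and in CD4+CD8lo 935, 856, 814, 1060 and 955 CPM. It was lower in DP2 than in DP1 in 5 of 5 mice, but the change missed the threshold (-0.30, adjusted p = 0.0739), which it passed without WT 4 (-0.35, adjusted p = 0.0102). In CD4 SM it was 684, 672, 569, 651 and 642 CPM, below every mouse's CD4+CD8lo value, a fall of 0.33 ± 0.10 (adjusted p = 0.0101). The call was lost with other clusters kept in the gates (-0.27, adjusted p = 0.0535). On the CD8 side, Bcl11b was 676, 487, 444, 1030 and 832 CPM in DP3 and 405, 304, 276, 357 and 378 CPM in CD8 SM. The ranges did not overlap, and the fall was 0.83 ± 0.11 (adjusted p = 4.44e-07). The smaller fall from CD4+CD8lo to DP3 (0.36, adjusted p = 0.0307) was lost without WT 1, WT 2 or WT 3 (adjusted p = 0.0879, 0.156 and 0.197).

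Satb1 fell late. In WT 1 to WT 5 it was 3290, 3310, 2670, 2740 and 2570 CPM in DP1, 3410, 2970, 2700, 3080 and 2600 CPM in DP2 and 3300, 3370, 2940, 3490 and 2620 CPM in CD4+CD8lo. The 3 ranges overlapped and neither step passed the test, with 95% intervals of -0.170 to 0.218 and -0.037 to 0.351 for the log2 change. In CD4 SM it was 2400, 1990, 1530, 1940 and 1530 CPM, a fall of 0.57 ± 0.10 (adjusted p = 2.1e-05). In CD4 Mat it was 947, 804, 673, 761 and 868 CPM, a further fall of 1.06 ± 0.10 (adjusted p = 3.16e-10). Each mouse was lower at each step, and all CD4 Mat values lay below all CD4 SM values. The summed level of 5 Treg markers also went down, from 458 to 577 CPM in CD4 SM to 151 to 203 CPM in CD4 Mat, and its part was not tested. On the CD8 side Satb1 was 2190, 1790, 1500, 3100 and 2520 CPM in DP3, 1130, 760, 521, 719 and 704 CPM in CD8 SM and 550, 445, 391, 488 and 555 CPM in CD8 Mat. From DP3 to CD8 SM it fell by 1.37 ± 0.10 (adjusted p = 3.62e-12), the smallest adjusted p of the 5 genes in any of these 7 steps, and from CD8 SM to CD8 Mat by 0.59 ± 0.11 (adjusted p = 0.00177). The last call was lost without WT 1 (-0.48, adjusted p = 0.057). The fall of 0.44 from CD4+CD8lo to DP3 (adjusted p = 0.00557) was lost without WT 2 or WT 3 (adjusted p = 0.0804 and 0.0823).

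Myb had the largest falls of the 5 genes on the way to CD4 SM. In WT 1 to WT 5 it was 323, 238, 285, 395 and 493 CPM in DP1 and 237, 233, 210, 391 and 513 CPM in DP2. In CD4+CD8lo cells it was 78.9, 78.4, 52.4, 110 and 134 CPM, below every DP2 value. The fall was 1.70 ± 0.24 (adjusted p = 1.22e-06). In CD4 SM it was 19.6, 16.6, 15, 20.9 and 66.0 CPM. Myb fell by 1.72 ± 0.26 at this step (adjusted p = 2.02e-06), in 5 of 5 mice. From CD8 SM, 22.5 to 80.5 CPM, to CD8 Mat, 4.32 to 40.1 CPM, Myb was lower in 5 of 5 mice but was not called (-1.65, adjusted p = 0.189). It was called there with DESeq2 (-1.68, adjusted p = 0.0287), with no filter on low counts (-1.64, adjusted p = 1.84e-06) and in sorted mice alone (-1.99, adjusted p = 0.000621). WT 5 was the highest mouse in every gate from DP1 to CD8 Mat, and Rag1 in CD4 SM was 1.98 to 3.38 CPM in the sorted and 19.3 to 261 CPM in the unsorted mice. In B-, myeloid- and erythrocyte-like cells, which are not T cells, Myb had a median of 73.6 CPM (range 25.5 to 163), and the medians of DP3 and the 4 SP gates lie below it. CPM in those cells varied widely and had a median of 361 for Tcf7, 83.7 for Lef1, 256 for Bcl11b and 518 for Satb1, from 684 cells. The Tcf7 medians of CD8 SM and CD8 Mat and the Satb1 median of CD8 Mat also lie below these.

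The sorted and the unsorted WT mice stood apart in DP3 as in DP2. Myb in DP3 was 19.9, 30.8 and 30.1 CPM in the sorted WT 1 to 3 and 269 and 333 CPM in the unsorted WT 4 and 5. Rag1 differed in the same gate in the same way, at 7.48 to 19.2 CPM in the sorted and 753 to 1490 CPM in the unsorted mice, as did the summed level of the 6 quiescent DP markers, at 673 to 728 and 3870 to 5130 CPM. The part of Rag1-positive DP cells in these levels was not tested, and sorting and site cannot be told apart. In sorted mice alone Myb fell by 1.29 from CD4+CD8lo to DP3 (adjusted p = 0.00015) and Tcf7 by 0.45 (adjusted p = 2.16e-05), and in unsorted mice alone Myb rose by 1.24 (adjusted p = 0.000305) and Tcf7 by 0.42 (adjusted p = 0.00885). Over all 5 mice neither was called, except Myb with no filter on low counts (0.56, adjusted p = 0.000437). Bcl11b and Satb1 at this step were called in sorted mice alone (-0.56, adjusted p = 7.9e-07, and -0.68, adjusted p = 4.97e-10) but not in unsorted mice alone (-0.16 for each, adjusted p = 0.367 and 0.397) nor with other clusters kept in the gates (-0.23 and -0.24, adjusted p = 0.238 and 0.277). The fall of Myb from DP3 to CD8 SM over all 5 mice, 1.71 ± 0.33 (adjusted p = 0.000208), was present in 3 of 5 mice, ranged from -3.55 to 0.59, and was 0.33 in the other direction in sorted mice alone (adjusted p = 0.774). The falls of Tcf7, Bcl11b and Satb1 at that step kept their call in sorted mice alone, at -0.43, -0.61 and -1.10, and were larger in unsorted mice alone, at -1.44, -1.06 and -1.69.

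**Figure D2:**
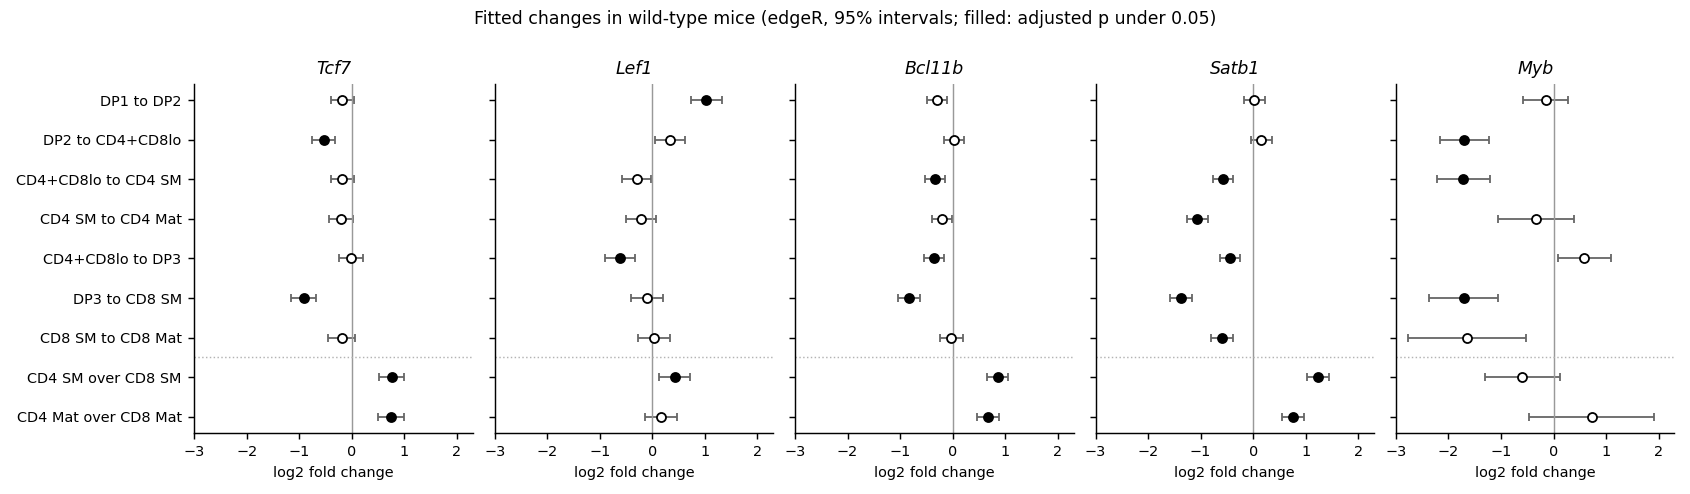
Fitted log2 fold change of each gene (horizontal axes) at the 7 steps between gates and, below the dotted line, between the CD4 and CD8 branches in WT mice (rows), with bars of 95% intervals and filled points where the adjusted p was below 0.05. Lef1 alone has a filled point above 0 among the steps, and 4 genes have one in CD4 SM over CD8 SM.

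In the SP cells of the same WT mice, 4 of the 5 genes were higher in CD4 than in CD8 cells. Tcf7, Lef1, Bcl11b and Satb1 were higher in CD4 SM than in CD8 SM in 5 of 5 mice, and all 4 were called, where 16.3% of all genes were called. Satb1 differed most, by 1.24 ± 0.10 on the log2 scale or 2.35-fold (adjusted p = 3.95e-12). Bcl11b was 1.81-fold (0.85 ± 0.10, adjusted p = 3.62e-08) and Tcf7 1.69-fold higher (0.76 ± 0.12, adjusted p = 8.1e-06). The CD4 SM and CD8 SM ranges of these 3 genes did not overlap. How many of all genes had separate ranges was not counted. Lef1 was 1.34-fold higher (adjusted p = 0.0423), but its ranges overlapped, and the call was lost without WT 1, WT 2, WT 3 or WT 5 (adjusted p = 0.101, 0.112, 0.0984 and 0.106) and with DESeq2 (adjusted p = 0.0741). Myb was lower in CD4 SM in 5 of 5 mice but was not called (-0.59, adjusted p = 0.289), whereas it was in the sorted mice alone (-0.98, adjusted p = 0.00537) and with no filter on low counts (-0.55, adjusted p = 0.0227). In the mature cells 3 genes were called, where 8.7% of all genes were. Tcf7 was 0.74 ± 0.13 (adjusted p = 5.02e-05), Bcl11b 0.68 ± 0.11 (adjusted p = 1.41e-05) and Satb1 0.76 ± 0.11 higher in CD4 Mat (adjusted p = 2.17e-06), each in 5 of 5 mice. Lef1 did not pass the test there (0.17, 95% interval -0.134 to 0.474, adjusted p = 0.587). The summed level of 5 NKT markers differed between the same gates without overlap, at 10.8 to 22.6 CPM in CD4 SM and 69.3 to 105 CPM in CD8 SM, and at 5.03 to 17.8 CPM in CD4 Mat and 43.2 to 94.7 CPM in CD8 Mat. So did that of 5 B cell markers, at 3.38 to 9.43 and 13.1 to 21.6 CPM in SM and at 3.78 to 8.91 and 20.1 to 42.9 CPM in Mat cells. These sums rest on few genes, although NKT- and B-like clusters had been left out of the gates. Of the B cell markers 2 had no UMI in CD8 SM and 3 none in CD8 Mat, and of the NKT markers 2 and 1. The B cell sum was 25.3 to 55.5 CPM in DP1, so it is no clear measure of B cells. The part of NKT or B cells in these differences was not tested.

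The steps were then measured in the mice that the WT fit did not use. In CD4-fated mice 1 gene was called from DP1 to DP2, where 2.76% of all genes were called. It was again Lef1, with a lowest, median and highest level of 164, 342 and 563 CPM in DP1 and 202, 682 and 1030 CPM in DP2 and a rise of 0.74 ± 0.19 (adjusted p = 0.0243), seen in 4 of the 5 mice with both gates. The 2 OT-II mice had 202 and 204 CPM in DP2, against 1020 and 1030 CPM in MHCI-/- mice. MHCI-/- mice were sorted, whereas OT-II mice were unsorted and from the second site, so genotype, sorting and site cannot be told apart here. The call was lost without AND 1 (adjusted p = 0.0559), AND 2 (0.0711), MHCI-/- 1 (0.271) or MHCI-/- 2 (0.185). From DP2 to CD4+CD8lo 1 gene was called, Myb, against 5.39% of all genes. It fell by 1.23 ± 0.32 (adjusted p = 0.0177), and the call was lost without MHCI-/- 1 (adjusted p = 0.0909), MHCI-/- 2 (0.0658) or OT-II 2 (0.0576) and with DESeq2 (0.0679).

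The late falls on the CD4 side were also present in CD4-fated mice. From CD4+CD8lo to CD4 SM, 3 genes were called, against 18% of all genes, and they were the 3 called in WT mice. Bcl11b went from 724 to 1010 CPM (median 848) to 534 to 641 CPM (median 585), a fall of 0.37 ± 0.09 (adjusted p = 0.00208), with no overlap. Satb1 fell by 0.78 ± 0.09 (adjusted p = 2.57e-07) and Myb fell by 1.63 ± 0.32 (adjusted p = 0.00038), both in 6 of 6 mice. From CD4 SM to CD4 Mat only Satb1 was called, against 5.99% of all genes. It fell by 0.80 ± 0.09 (adjusted p = 7.36e-07), from 1060 to 1760 CPM to 630 to 849 CPM, in 6 of 6 mice. Of 10 DP-stage genes 3 were called higher at this step, Ptcra (1.99, adjusted p = 0.00151), Rag2 (2.21, 0.0229) and Arpp21 (2.0, 0.0236). The part of DP cells in CD4 Mat was not tested.

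In CD8-fated mice Lef1 was called from DP1 to DP2, where 5.41% of all genes were. Its level was 268 to 393 CPM in DP1 and 399 to 927 CPM in DP2, without overlap, and it rose by 0.82 ± 0.14 (adjusted p = 0.000891) in 6 of 6 mice. The call was lost without MHCII-/- 2 (adjusted p = 0.0567). Myb was lower in 6 of 6 mice and missed the threshold (-0.90, adjusted p = 0.0933), which it passed without F5 2 (-0.96, adjusted p = 0.0364). None was called from DP2 to CD4+CD8lo, where edgeR called 0.641% of all genes. An unadjusted p below 0.05 was found for Lef1 (-0.33, adjusted p = 0.386) and Myb (-0.67, adjusted p = 0.487), and for 956 of the 9512 genes tested. DESeq2 called none of the 5 either. From CD4+CD8lo to DP3 Bcl11b was called, against 0.936% of all genes, with a fall of 0.68 ± 0.14 (adjusted p = 0.00879) in 5 of 6 mice. F5 2 was the exception, at 532 CPM in CD4+CD8lo and 720 CPM in DP3. Without 1 mouse each of MHCII-/- or OT-I that call was lost (adjusted p = 0.0946, 0.0832, 0.0602 and 0.0631).

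From DP3 to CD8 SM, 2 genes were called in CD8-fated mice, against 2.32% of all genes. Satb1 fell by 1.11 ± 0.18 (adjusted p = 0.000376) in 6 of 6 mice and Bcl11b by 0.55 ± 0.15 (adjusted p = 0.0372) in 5 of 6. Bcl11b lost its call without F5 2 or any 1 of the MHCII-/- and OT-I mice (adjusted p = 0.0582 to 0.209). Tcf7 was lower in 6 of 6 mice and missed the threshold (-0.57, adjusted p = 0.0536), which it passed without F5 1 (adjusted p = 0.0163) or F5 2 (adjusted p = 0.0367). From CD8 SM to CD8 Mat none of the 5 was called by edgeR, where 0.0946% of all genes were. Satb1 was lower in 6 of 6 mice there (-0.39, adjusted p = 0.801). It was the 1 gene of the 5 with an unadjusted p below 0.05, which 566 of the 9512 genes tested had. DESeq2 called none of the 5.

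Tcf7 in CD8 cells varied between the CD8-fated genotypes. In CD8 SM it was 1130 and 767 CPM in F5 1 and F5 2, from only 22 and 30 cells. It was 295 to 399 CPM in the 4 MHCII-/- and OT-I mice, from 162 to 332 cells each. In CD8 Mat it was 845 and 639 CPM in the F5 mice and 246 to 356 CPM in the other 4. Both F5 mice lay above every WT mouse in CD8 SM and CD8 Mat as well, whereas in DP1 the F5 values, 1530 and 1260 CPM, lay inside the WT range. Satb1 showed the same order, with 1240 and 908 CPM in CD8 SM of F5 mice and 604 to 670 CPM in the other 4. Only 2 mice carried the F5 receptor and no test was made of 1 genotype.

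**Figure D3:**
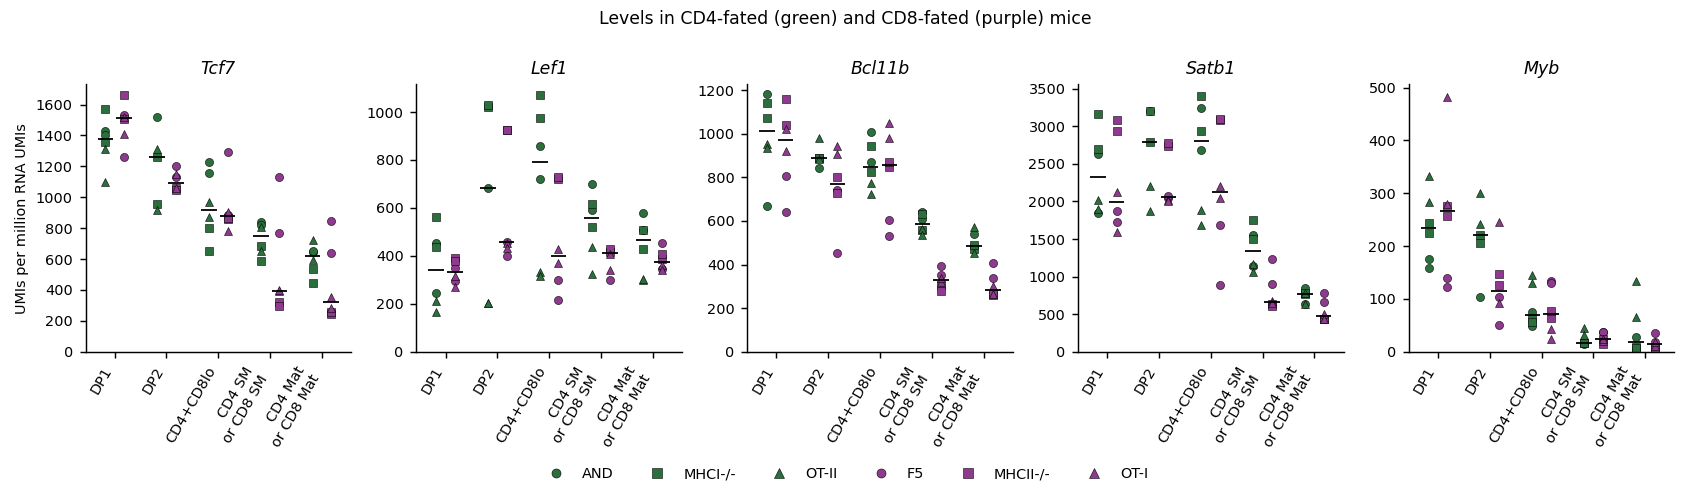
Level of each gene (CPM, linear vertical axes from 0) in DP1, DP2, CD4+CD8lo, SM and Mat cells of CD4-fated (green) and CD8-fated (purple) mice, with 1 point per mouse, a symbol for each genotype and a bar at the median; SM and Mat are CD4 cells in CD4-fated and CD8 cells in CD8-fated mice. The groups overlap for every gene in the 3 shared gates, and Bcl11b in mature cells stands at 451 to 571 against 260 to 405 CPM.

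CD4-fated and CD8-fated mice were then compared within a gate, with a covariate for the pair that a genotype belongs to (F5 and AND, OT-I and OT-II, or the mice that lack an MHC class). In the 3 gates that both lineages pass through, none of the 5 genes was called by edgeR or by DESeq2. edgeR called 0.0358% of all genes in DP1, 0.44% in DP2 and 0.0461% in CD4+CD8lo. The 95% intervals of the log2 difference ran from -0.378 to 0.222 for Tcf7 and from -0.193 to 0.481 for Bcl11b in DP1. Of the 15 differences, 2 had an unadjusted p below 0.05, Lef1 in CD4+CD8lo and Myb in DP2. Over all genes 215 of 8379 had one in DP1, 538 of 7961 in DP2 and 364 of 8681 in CD4+CD8lo. Lef1 in DP1 was called within MHCI-/- against MHCII-/- alone (0.43, adjusted p = 0.0154). Lef1 in CD4+CD8lo cells was 316, 790 and 1070 CPM (lowest, median, highest) in CD4-fated and 214, 399 and 729 CPM in CD8-fated mice, a difference of 0.56 ± 0.26 (adjusted p = 1). Within families it was 0.52 for MHCI-/- against MHCII-/- (adjusted p = 6.95e-05) and 1.57 for AND against F5 (adjusted p = 0.0218), and the OT mice went the other way, with 331 and 316 CPM in OT-II and 427 and 370 CPM in OT-I. Myb in DP2 was 103, 220 and 300 CPM in CD4-fated and 50.1, 115 and 245 CPM in CD8-fated mice (0.61 ± 0.24, adjusted p = 0.554). That difference was called within MHCI-/- against MHCII-/- (0.61, adjusted p = 7.41e-05) and with the replicate number as a block (0.73, adjusted p = 0.0343). The summed level of 5 gamma-delta T markers was higher at the median in CD8-fated mice in these gates, at 410 against 146 CPM in DP1, 369 against 117 CPM in DP2 and 419 against 143 CPM in CD4+CD8lo, although the ranges overlapped. Its part in the differences was not tested.

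Among mature cells 1 gene was called, Bcl11b, where 5.79% of all genes were. It was 1.67-fold higher in CD4 Mat of CD4-fated mice than in CD8 Mat of CD8-fated mice (0.74 ± 0.13, adjusted p = 0.00252) and the groups did not overlap. The summed level of 5 NKT markers differed too, at 5.08 to 22.0 CPM and 67.2 to 89.8 CPM, and its part was not tested. The Bcl11b difference varied by family. Within AND against F5 alone it was 0.57 (adjusted p = 0.0903) and within the OT family 0.79 (adjusted p = 1), with 2 mice on each side. Tcf7 (0.62 ± 0.18, adjusted p = 0.0605) and Satb1 (0.50 ± 0.15, adjusted p = 0.067) missed the threshold. Without F5 1, whose Tcf7 was 845 CPM, the Tcf7 difference was 0.73 (adjusted p = 0.0228), without AND 1 it was 0.72 (adjusted p = 0.0342), and within MHCI-/- against MHCII-/- it was 0.97 (adjusted p = 1.3e-07). Within AND against F5 it was -0.07 (adjusted p = 0.884) and within the OT family 0.98 (adjusted p = 0.913). Satb1 passed without AND 1 (0.60, adjusted p = 0.0274) and within MHCI-/- against MHCII-/- (0.80, adjusted p = 1.54e-07). It was 0.15 within AND against F5 and 0.27 with other clusters kept in the gates, neither of them called. Lef1 (0.18) and Myb (0.90) were not called. Lef1 passed within MHCI-/- against MHCII-/- (0.24, adjusted p = 0.046). Myb passed with no filter on low counts (0.88, adjusted p = 0.00119), with other clusters kept in the gates (1.74, adjusted p = 0.0185) and within the OT family (2.94, adjusted p = 0.03), and was -0.68 within AND against F5. The change from DP1 to CD4+CD8lo was also tested for a difference between the lineages. edgeR called 0% of 9050 genes there, 375 had an unadjusted p below 0.05, and DESeq2 called 8 genes, none of them among the 5. Lef1 had the smallest p of the 5 (0.58 ± 0.24, adjusted p = 1).

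Genes that work with these factors, taken from fixed lists, moved in both directions. Of 11 TCF/LEF cofactors 9 were tested. From DP2 to CD4+CD8lo 1 was higher and 1 lower, a share near the 20.7% of all genes. The corepressor gene Tle1 fell by 1.30 (adjusted p = 0.00493) and Tle4 rose by 0.49 (adjusted p = 0.0125). From CD4+CD8lo to CD4 SM 2 were higher and 0 lower, again near the share of all genes, 19.8%. Aes, which encodes a short Groucho-family protein, rose by 0.38 (adjusted p = 0.00242) and the beta-catenin adaptor gene Bcl9 by 0.57 (adjusted p = 0.00243). Its relative Bcl9l was 1.08 lower (adjusted p = 0.000642) and Bcl9 0.83 higher (adjusted p = 0.00168) in CD4 SM than in CD8 SM, the 2 of the 9 called there against 16.3% of all genes. All 13 genes of NuRD, a remodelling and deacetylase complex that BCL11B and SATB1 can recruit, were tested. From CD4+CD8lo to CD4 SM, 2 were higher and 4 lower, against 19.8% of all genes, and the helicase gene Chd3 rose by 1.13 (adjusted p = 4.84e-05). In CD4 SM against CD8 SM, 1 was higher, Chd3 (1.18, adjusted p = 0.000136), and 5 were lower, among them Gatad2a (-0.67, adjusted p = 5.79e-05) and Rbbp7 (-0.58, adjusted p = 0.000416), against 16.3% of all genes. The median over the 13 was -0.04 there and 0.02 over all genes.

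All 11 T-lineage partner factors were tested. From DP1 to DP2, 4 were higher and 1 lower, against 3.89% of all genes, with a median of 0.39 against -0.01 over all genes. At this step 3 were higher and 1 lower in CD4-fated mice (median 0.26), against 2.76% of all genes, and 1 was higher and 1 lower in CD8-fated mice (median 0.12), against 5.41%. Bach2, a repressor kept in naive T cells, rose by 1.78 (adjusted p = 0.00367), and Id3, an inhibitor of E proteins, by 0.73 (adjusted p = 0.0124). The E protein gene Tcf12 then fell by 1.16 from DP2 to CD4+CD8lo (adjusted p = 1.31e-06). From DP3 to CD8 SM, 7 of the 11 were lower and 0 higher, where 19.5% of all genes were called in either direction, with Gata3, the factor upstream of the CD4 fate, down by 2.11 (adjusted p = 2.94e-05), Ets1 by 0.61 (adjusted p = 6.89e-06) and Runx1 by 0.90 (adjusted p = 0.000336). In CD8-fated mice none of the 11 was called by edgeR at that step, with a median of -0.27 and a smallest adjusted p of 0.0749. Both SP comparisons had 4 of the 11 higher in CD4 cells and none lower by edgeR, against 16.3% of all genes called in SM and 8.7% in Mat cells. In CD4 SM against CD8 SM these included Runx1 (1.58, adjusted p = 2.37e-10), Ets1 (0.85, adjusted p = 2.35e-09) and Gata3 (2.21, adjusted p = 2.88e-06).

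Of 12 progenitor and innate genes that committed T cells keep low, 2 had enough counts to be tested in WT mice. Id2, an E protein inhibitor, rose by 1.66 from DP1 to DP2 (adjusted p = 0.0109) and by 2.73 into CD4+CD8lo (adjusted p = 5.21e-09), and fell by 1.98 from CD4 SM to CD4 Mat (adjusted p = 8.78e-08). The stem cell factor receptor gene Kit was 2.41 higher in CD8 SM than in DP3 (adjusted p = 0.000231). DP-stage genes include Cd4, Cd8a and Cd8b1, the coreceptor genes. The gates select on the CD4 and CD8a proteins, and CD8b pairs with CD8a, so changes of these genes between gates are fixed by the gating and are no finding. Of the 10, 8 were lower and 0 higher from DP2 to CD4+CD8lo in WT mice, Cd8a and Cd8b1 among them, where 20.7% of all genes were called. Rag2 fell by 2.85 (adjusted p = 5.5e-07) at this step, at which Myb and Tcf7 fell too. In CD4-fated mice 4 of the 10 were lower there, again with Cd8a and Cd8b1 and against 5.39% of all genes, and in CD8-fated mice only these 2 were, against 0.641%. From CD4+CD8lo to DP3 the sorted and unsorted WT mice went opposite ways. The summed quiescent DP markers went from 1300 to 1390 CPM down to 673 to 728 CPM in sorted mice and from 1890 to 3300 CPM up to 3870 to 5130 CPM in unsorted mice. Over all 5 mice 5 of the 10 were higher, Cd8a and Cd8b1 among them, against 3.79% of all genes. In CD8-fated mice the 3 genes called at that step, against 0.936% of all genes, were Cd4, Cd8a and Cd8b1.

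Paralogs of Tcf7, Bcl11b and Myb were low in the WT gates from DP1 to CD8 Mat. Bcl11a had 0 to 3 UMIs and Mybl1 1 to 5 UMIs in a gate, summed over the 5 mice. Mybl2, a cell cycle gene, had a median of 0 to 6.49 CPM and Tcf7l1 of 0.993 to 4.47 CPM. Only Tcf7l2 was tested in the WT fit. Its median was 10.5 CPM in DP1 and 11.6 CPM in CD4 SM and 0.555 CPM in CD4 Mat, where 4 UMIs remained. The fitted log2 change, -4.09 ± 0.42 (adjusted p = 1.45e-09), was larger than that of any of the 5 genes at this step and rests on few UMIs. It was also called in CD4-fated mice (-2.22, adjusted p = 0.00305).

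Over the 40 sums of a WT mouse and a gate, Tcf7, Bcl11b and Satb1 had like patterns and Lef1 did not. Pearson's r of log2(CPM + 1) was 0.95 for Tcf7 with Bcl11b, 0.93 for Bcl11b with Satb1 and 0.91 for Tcf7 with Satb1. Myb had r of 0.74 to 0.81 with these 3. Lef1 had r of 0.28, 0.29, 0.45 and 0.04 with Tcf7, Bcl11b, Satb1 and Myb. The sums share mice and depth, so these are descriptions. Of 9181 genes, those most like Tcf7 were Znrf1 (0.961), Bcl11b and Ldhb (0.935). Those most like Lef1 were Xylt2 (0.856), Gm43352 (0.837) and Cd69 (0.826), the activation marker whose protein is part of the gates. Those most like Bcl11b were Tcf7, Stat5b (0.936) and Ephb6 (0.935), those most like Satb1 were Sox4 (0.952), Ephb6 (0.948) and Bcl11b, and those most like Myb were Cux1 (0.95), A430106G13Rik (0.949) and Chrna9 (0.945).

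**Figure D4:**
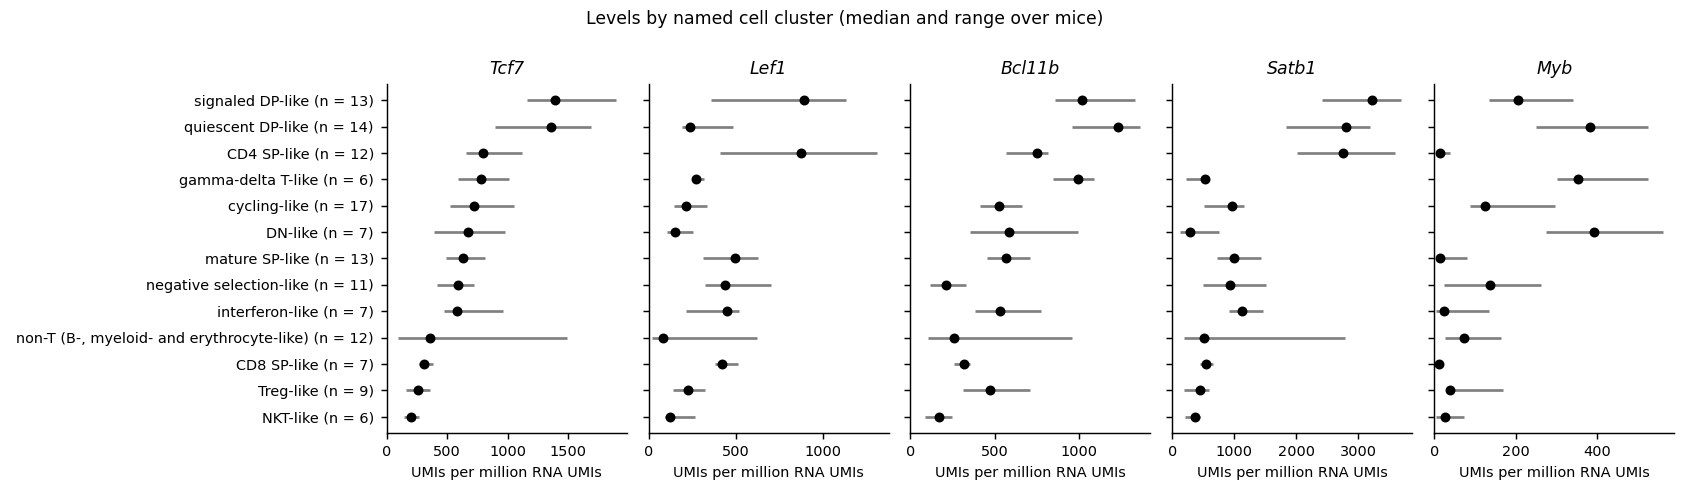
Level of each gene (CPM, linear horizontal axes from 0) in the named cell clusters (rows, with the number of mice), where points are medians and lines span the lowest to the highest mouse. Satb1 and Bcl11b are low in NKT-like cells, and Myb is high in DN-, quiescent DP- and gamma-delta T-like cells and low in SP-like cells.

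Outside the main path, levels were described by cell type, from clusters made without the 5 genes and their paralogs. Of 33 clusters, 29 were named by markers as X-like, and the 13863 cells of the others were given no cell type. Because clusters rest on RNA, these levels carry no test. DN-like cells, the earliest thymocytes, had a median Satb1 of 280 CPM against 2810 CPM in quiescent DP-like cells, and the log2 difference was -3.16 at the median and below 0 in 6 of 6 mice. Tcf7 and Bcl11b were lower in DN-like cells in 6 of 6 mice as well, by 0.91 and 0.68 at the median. Myb was not, with medians of 392 and 382 CPM and a higher value in 4 of 6 mice. Cycling-like cells had lower Tcf7, Bcl11b, Satb1 and Myb than quiescent DP-like cells in 14 of 14 mice, and Lef1 was lower in 9 of 14. These are shares of the RNA. Pooled over mice, 17537 quiescent DP-like cells held 60606 UMIs of Tcf7 and 51928 of Bcl11b. The 6916 cycling-like cells held 68334 and 47511 and the 764 DN-like cells 4767 and 4646, more per cell in each case. Satb1 and Myb UMIs per cell were also higher in cycling-like cells, at 77316 and 14173 in all against 119350 and 16919.

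Gamma-delta T-like cells had more Myb. Its median was 354 CPM there and 13.3 CPM in mature SP-like cells, and it was higher in 6 of 6 mice, by 4.17 on the log2 scale at the median. They also had more Bcl11b in 6 of 6 mice (0.66) and less Satb1 (-1.15) and Lef1 (-0.68) in 6 of 6. Tcf7 was higher in 4 mice and lower in 2. A single lane held 42.6% of 1 gamma-delta T-like cluster and 83.6% of the other. The 5 markers of NKT-like cells were detected but are not among the 10 leading genes of their cluster, which include S100a6, S100a4, Ccl5, Klra1 and Cxcr6. NKT-like cells were lower than mature SP-like cells in Tcf7 (-1.43), Lef1 (-2.29), Bcl11b (-1.57) and Satb1 (-1.75) in 4 of 4 mice. Myb went the other way and was higher in 3 of the 4 (0.77 at the median). Pooled over mice, 360 NKT-like cells held 803 UMIs of Lef1 and 10233 mature SP-like cells 22040. Lef1 was thus lower as a share of the RNA and not per cell, whereas Tcf7, Bcl11b and Satb1 were lower per cell too. Treg-like cells were lower than CD4 SP-like cells in Tcf7 (-1.51), Lef1 (-1.76), Bcl11b (-0.58) and Satb1 (-2.67) in 8 of 8 mice and higher in Myb, at medians of 38.9 and 13.7 CPM, both below the non-T cells. The size depends on the reference. Satb1 had a median of 439 CPM in Treg-like, 2750 in CD4 SP-like and 993 in mature SP-like cells, and Bcl11b 469, 753 and 566. For Lef1 these were 225, 875 and 498 CPM and for Tcf7 263, 796 and 627. Tcf7 and Satb1 in Treg- and NKT-like cells, Bcl11b in NKT-like cells and Satb1 in DN-like cells were below the non-T medians as well. Negative selection-like cells, named by markers of strong TCR signals such as Bcl2l11 and Nr4a3, were below signaled DP-like cells in all 5 genes in 10 of 10 mice. Bcl11b was the most different, at medians of 209 CPM, which is below the non-T cells, and 1020 CPM and -2.21 on the log2 scale. Lef1 differed by -0.98 and Myb by -0.69. These too are shares of the RNA. Pooled over mice, 2027 negative selection-like cells held 6912 UMIs of Lef1 and 1797 of Myb. The 6712 signaled DP-like cells held 22121 and 5249, which is fewer per cell for both genes. Tcf7, Bcl11b and Satb1 had fewer UMIs per cell in negative selection-like cells.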

How the data were processed

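The authors deposited raw UMI counts per gene and per antibody for each lane, made with Cell Ranger 3.1.0 on mm10 (GRCm38) per the labels. Cells had at most 15% mitochondrial UMIs, at least 200 genes, 1000 to 10000 antibody UMIs and at least 70 of 111 antibodies, and doublets were removed. Gates used antibody thresholds set per experiment. Cells of cycling-, DN-, Treg-, NKT-, gamma-delta T- and non-T-like clusters were left out of them. Counts were summed per mouse and gate, the mouse being the replicate. edgeR 4.0.16 (quasi-likelihood F test, TMM, filterByExpr, Benjamini-Hochberg adjustment over all genes, threshold 0.05) was fitted with the mouse as a block between gates and with family as a covariate between lineages. DESeq2 1.42.0 was an alternative. The test was run on simulated counts drawn with 1 dispersion for all genes and no differences between mice. That check cannot cover the spread between mice or the mouse block. Named beside the 5 genes were paralogs of Tcf7, Bcl11b and Myb, up to 3 called genes of a list with the smallest adjusted p in a comparison, and the 3 genes with the highest Pearson's r in WT sums. Members and lists were chosen with earlier results of these data known. The depth of the sums ranged from 56021 to 7585759 UMIs, and intervals cover the fitted model only.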

Additional observations from a re-analysis of the deposited data

Results flagged for a closer look

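Of 105 groups of 4 to 6 mice, 7 had a mouse far from the others by Dixon's ratio, where chance gives about 1 in 20. Myb in WT 5 was 66.0 CPM in CD4 SM, 80.5 CPM in CD8 SM and 40.1 CPM in CD8 Mat, above the other WT mice in each gate. Tcf7 in WT 1 was 866 CPM in CD4 SM, against 605 to 667 CPM in the other 4. Among CD8-fated mice, Tcf7 in CD4+CD8lo cells of F5 1 was 1290 CPM and Tcf7 in CD4 SM of OT-I 1 was 793 CPM. Bcl11b in DP3 of F5 2 was 720 CPM, against 389 to 500 CPM in the other 5 CD8-fated mice. Causes of these values were not tested.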

How the results depend on the processing

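Leaving out 1 mouse at a time gave 182 values for the 33 called changes, of which 29 lost the call and none turned in sign. Of 613 values for uncalled changes, 9 passed the threshold and 47 had the other sign. Among other settings, 31 of 368 values of called changes lost the call with their sign kept and 1 with its sign turned. Of 902 values of uncalled changes, 58 passed the threshold with their sign kept and 2 with the sign turned. A further 82 had the other sign without a call. Values that turned in direction with a call in either fit were Myb from DP3 to CD8 SM (0.33) and Myb from CD4+CD8lo to DP3 (-1.29) in sorted WT mice alone, and Tcf7 from CD4+CD8lo to DP3 (0.42) in unsorted WT mice alone. The causes were not tested.

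The number of the 5 genes called, leaving out 1 mouse at a time, ranged in WT mice from 1 to 2 from DP1 to DP2, from 2 to 3 from DP2 to CD4+CD8lo, from 3 to 4 from CD4+CD8lo to CD4 SM, from 0 to 3 from CD4+CD8lo to DP3, from 0 to 1 from CD8 SM to CD8 Mat and from 3 to 4 in CD4 SM against CD8 SM. In CD4-fated mice it ranged from 0 to 1 from DP1 to DP2 and from DP2 to CD4+CD8lo. In CD8-fated mice it ranged from 0 to 2 from DP1 to DP2, from 0 to 1 from CD4+CD8lo to DP3 and from 1 to 3 from DP3 to CD8 SM. Between mature cells of the lineages it ranged from 1 to 3.

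With DESeq2 it was 2 from CD8 SM to CD8 Mat and 3 between mature cells of the lineages. With no filter on low counts it was 2 from DP1 to DP2, from CD8 SM to CD8 Mat, in CD4-fated mice from CD4 SM to CD4 Mat, and in CD8-fated mice from DP1 to DP2 and from CD4+CD8lo to DP3, and 3 between mature lineages. Scaled by library size it was 5 from CD4+CD8lo to CD4 SM and 3 from CD4 SM to CD4 Mat, where calls over all genes rose from 1823 to 3201 and from 1246 to 1776, and in CD4-fated mice 2 from DP2 to CD4+CD8lo and from CD4 SM to CD4 Mat. With higher antibody thresholds it was 2 from DP1 to DP2, 0 in CD4-fated mice from DP2 to CD4+CD8lo and 1 in CD8-fated mice from DP3 to CD8 SM. In those CD4-fated and CD8-fated steps calls over all genes fell too, from 499 to 156 and from 221 to 103. With lower antibody thresholds it was 2 in CD4-fated mice from DP2 to CD4+CD8lo. It was 0 in CD8-fated mice from CD4+CD8lo to DP3, where calls over all genes fell from 89 to 57. Smaller changes of these counts are not all listed. With lower thresholds, for example, Tcf7 gained a call in CD8-fated mice from DP3 to CD8 SM (adjusted p = 0.0379). Bcl11b lost one in WT mice from CD4+CD8lo to DP3 (adjusted p = 0.0914). With no cluster left out the number of the 5 called was 0 from CD4+CD8lo to DP3 in WT and CD8-fated mice, 2 in CD4-fated mice from DP1 to DP2 and from CD4 SM to CD4 Mat, 1 in CD8-fated mice from DP3 to CD8 SM and 2 between mature lineages. In CD4-fated mice calls over all genes rose from 256 to 1381 from DP1 to DP2. They fell from 555 to 307 from CD4 SM to CD4 Mat.

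Without the mouse as a block it was 0 from DP2 to CD4+CD8lo, 1 from CD4+CD8lo to CD4 SM, and 0 from CD4+CD8lo to DP3 and from CD8 SM to CD8 Mat. Calls over all genes fell too, from 1903 to 282, from 1823 to 368 and from 348 to 36 at the steps named up to DP3. The log2 difference between the 2 mice of a genotype, taken over genes, was correlated between the 2 lineages of a family. This correlation was 0.58 to 0.80 in the OT family and -0.15 to 0.18 in the others. The number was therefore not taken to pair the mice of the whole comparison. AND 1 and F5 1 shared an experiment, as did AND 2 and F5 2, and the values within a family do not pair the mice. With the replicate number as a block 1 gene was called in DP2, Myb (0.73, adjusted p = 0.0343). Within AND and F5 it was 1 in CD4+CD8lo and 0 in mature cells, and within the MHC family 1 in DP1, DP2 and CD4+CD8lo and 4 in mature cells. Within the MHC family calls over all genes rose as well, from 3 to 396 in DP1 and from 35 to 403 in DP2. They rose from 4 to 700 in CD4+CD8lo and from 515 to 2343 in mature cells. Chosen after seeing the data, leaving out the replication cluster gave 2 from DP1 to DP2 in WT and in CD8-fated mice and 3 between mature lineages. Sorted WT mice alone gave 3 from DP1 to DP2, 5 to CD4 SM, 4 to CD4 Mat, 5 to DP3 and 2 from CD8 SM to CD8 Mat. Unsorted mice alone gave 0 at that last step, where only 5 of all genes were called. In sorted mice alone calls over all genes also rose, from 1246 to 1887 to CD4 Mat, from 348 to 834 to DP3 and from 94 to 272 to CD8 Mat. Calls over all genes are not given here for every setting, and a count of the 5 without them has no such reference. Over all genes, calls from DP1 to DP2 ran from 28 to 1701. They fell from 1903 to 780 from DP2 to CD4+CD8lo and from 1795 to 613 from DP3 to CD8 SM without WT 4, to 275 at the latter step in sorted mice alone, and from 515 to 4 in CD8-fated mice from DP1 to DP2 without MHCII-/- 2.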
